A study of Rattus norvegicus with 9 samples.

Results

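The interleukin-1 (IL-1) and tumour necrosis factor (TNF) system was followed in cells of the rat tibial osteotomy site through 9 genes, which were taken by symbol from the 41801 genes listed for every library. The genes were the ligands Il1a, Il1b and Tnf, the antagonist Il1rn, the signalling receptor chains Il1r1 and Il1rap, the decoy receptor Il1r2, and the TNF receptors Tnfrsf1a and Tnfrsf1b. All 9 were detected, with between 8430 UMIs (Il1a) and 185069 UMIs (Il1b) over the cells kept.

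IL-1α and IL-1β bind IL-1R1, which then recruits the accessory protein IL-1RAP and signals through MyD88 and NF-κB. The receptor antagonist encoded by Il1rn occupies IL-1R1 without recruiting the accessory chain, and IL-1R2 binds ligand but has no signalling domain, so both restrain the same ligands at different points. TNF is made mainly by myeloid cells and acts through TNFR1 (Tnfrsf1a), a death domain receptor found on most cells, and TNFR2 (Tnfrsf1b), which is more restricted to leukocytes and endothelium. In injured bone these cytokines are early products of neutrophils, monocytes and macrophages, and they act on stromal and endothelial cells as well as on the leukocytes themselves.

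Male Sprague-Dawley rats received a circular osteotomy of the proximal tibia and a full-thickness skin wound on the hind foot, in all groups. The TO group had the osteotomy alone, and the TOE group also received radial shock waves on the osteotomy site (rESWT). Shock waves were given on day 2 and again on day 4 after the injury. The TOE libraries of day 4 thus followed both sessions and those of day 2 only the first. In TOE the day and the number of sessions cannot be told apart. Libraries of 8 conditions were analysed, of TO at 2d 0h or 2d 4h and at 4d 4h or 4d 24h, and of TOE at 2d 4h or 2d 24h, and later at 4d 4h or 4d 24h, where the day is that of a shock wave session, counted from the injury, and the hour is the time from then to collection. TO had no session, and its hours are counted in the same way. The 24 h libraries were therefore also collected about 1 day later after the injury. TO 2d 24h was not analysed here. Each condition had 1 library, the number of rats behind a library is not given in the sources used here, and uninjured bone was not among the samples, so no condition could be tested by itself.

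The libraries held 95954800 to 144146202 UMIs in 116711 barcodes, of which 110426 were kept. Pairs of libraries shared 40 to 110 cell barcodes, which was 0.308% to 0.783%. Cells were grouped without the 9 genes and were named by marker genes, which gave 15004 neutrophil-like, 11345 monocyte-like, 2139 macrophage-like, 1192 mesenchymal-like, 463 endothelial-like and 48854 B-cell-like cells, among others. The neutrophil-like clusters raised 3 to 10 of 11 neutrophil markers and the monocyte-like clusters 4 to 7 of 10 monocyte markers. The macrophage-like cluster raised 9 of 11 macrophage markers, and it also raised 3 osteoclast markers. No cluster was called osteoclast in the main setting. At Leiden resolution 2, 1776 cells were called macrophage and 329 osteoclast, with medians of 13370.5 and 31809 UMIs per cell. Those called osteoclast numbered 121 in TOE 2d 24h and 2 in TOE 4d 24h. The macrophage-like levels below can include such cells, and their part was not tested. The endothelial-like cluster raised 10 of 10 endothelial markers, but with Leiden resolution 2 its 463 cells, equal in number in 8 of 8 libraries, fell into 373 cells called endothelial and 90 called mesenchymal, led by Mgp and with the smooth muscle genes Acta2 and Tagln among the leading genes. The latter had a median of 33244.5 UMIs per cell against 14244, so they weigh more in the sums, and they numbered 34 of 136 in TOE 2d 24h and 0 of 37 in TO 4d 24h. The dendritic-cell-like cluster (2121 cells) raised 6 of 9 dendritic-cell markers and also 6 markers of haematopoietic progenitors, and at that resolution 1306 dendritic and 810 progenitor cells formed clusters of their own. TOE 4d 24h stood apart from the other libraries, with 27 macrophage-like cells against 122 to 573 elsewhere and 95.02% of its monocyte-like cells in a single cluster (cluster 12), which held 9.0% to 41.2% of them in the other 7 libraries. Free RNA also differed there, since B-cell-like cells, which should lack the neutrophil gene S100a8, held 1432 CPM (UMIs of the gene per 1e6 UMIs) of it in TOE 4d 24h and 312 to 545 CPM in the others. Levels below are in CPM, the UMIs of a gene scaled by all UMIs of the same cells, summed over a cell class within a library. A change in such a sum can come from more cells that hold the transcript or from more transcript per cell, which cannot be told apart in the sum.

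The members differed in the cell class where they were highest, although several shared a class. The median level over libraries of Il1b was highest in monocyte-like cells (517 CPM), that of Il1a and Tnf in macrophage-like cells (34.9 and 53.6 CPM), that of Il1r2 and Il1rn in neutrophil-like cells (270 and 139 CPM), and that of Il1r1 and Tnfrsf1a in endothelial-like cells (111 and 95.1 CPM). Pooled over libraries, neutrophil-like cells held 85.7% of all Il1r2 UMIs (58.7% to 92.6% in single libraries). Monocyte-like cells held 57.4% of the Il1b UMIs (24.0% to 70.1%), 66.0% of the Il1a (43.7% to 81.1%), 50.3% of the Tnf (34.6% to 72.2%), 61.5% of the Il1r1 (32.5% to 72.1%) and 66.7% of the Tnfrsf1b (57.9% to 72.3%). The share of Il1b in neutrophil-like cells reached 65.4% in a library, and that of Tnf in macrophage-like cells 51.3%. Neighbours in the order of the 11 classes were compared over libraries by an exact two-sided sign-flip permutation test. Over the 90 pairs of neighbours, 31 had an exact p under 0.05, and 14 reached 0.0078, the smallest that 8 libraries allow. After Benjamini-Hochberg adjustment over all 90 pairs none fell under 0.05, and the smallest adjusted p in this permutation test was 0.0502. This result did not hold under every alternative of the processing, as given below. The test adds 1 UMI to every sum, which weighs more in classes with few UMIs. With 1 CPM added to every level in its place, a choice made with the first result known, 27 pairs had an exact p under 0.05 and 13 reached 0.0078, and 26 pairs were under 0.05 in the same direction in both. The number of libraries in which the first class was higher differed in 29 of the 90 pairs.

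**Figure D1:**
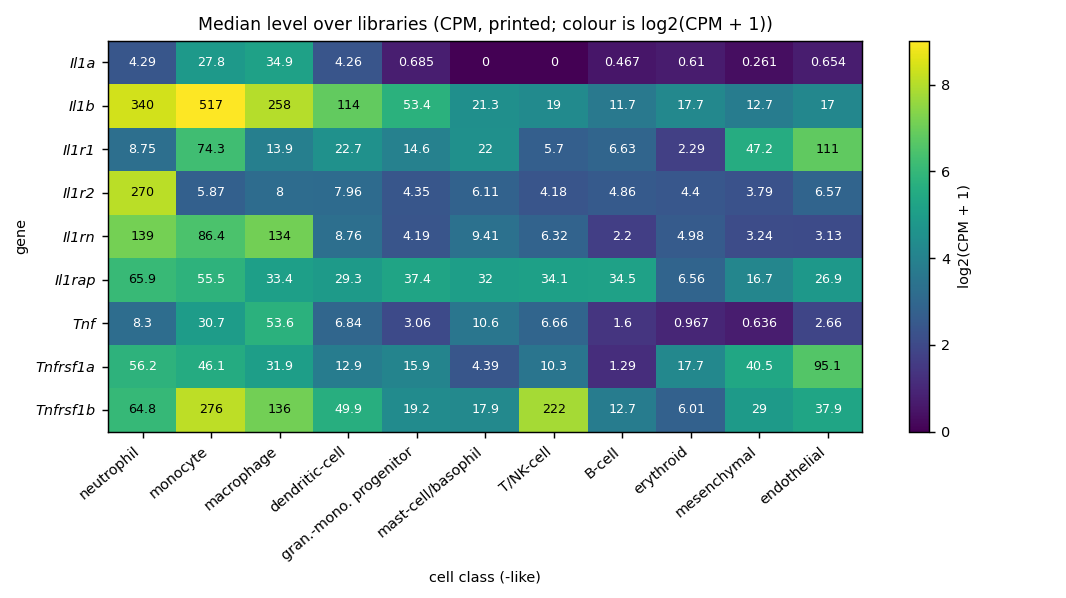
Median level of each of the 9 genes (rows) over the libraries with at least 20 cells of a class (columns, named by markers). The printed values are CPM and the colour is log2(CPM + 1). Il1r2 reaches 270 CPM in neutrophil-like cells and at most 8.00 CPM in every other class, while Il1b, Il1rn and Tnfrsf1b are spread over several myeloid classes.

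Il1b, the secreted IL-1 agonist that is active after cleavage, for example by caspase-1, was the most abundant member in counts. In monocyte-like cells it stood at 490, 885, 477 and 243 CPM in TO 2d 0h, TO 2d 4h, TO 4d 4h and TO 4d 24h, and at 854, 543, 676 and 29.3 CPM in TOE 2d 4h, TOE 2d 24h, TOE 4d 4h and TOE 4d 24h. In neutrophil-like cells the same libraries gave 156, 825, 673 and 280 CPM in TO and 350, 330, 464 and 37.2 CPM in TOE. TOE 4d 24h was the lowest library in both classes, and in each arm the 2 highest libraries for neutrophil-like cells were collected at 4 h. Monocyte-like cells lay above neutrophil-like cells in 5 of 8 libraries, with a mean log2 difference of 0.41 (SD 0.78, exact sign-flip p = 0.203), so the spread between libraries exceeded the difference. Macrophage-like cells ranged from 21.8 CPM in TOE 4d 24h to 603 CPM in TO 2d 0h. In B-cell-like cells, taken as the background of free RNA, Il1b lay between 0.576 and 20.2 CPM.

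Il1a, the agonist that is active without cleavage and can act while bound to the membrane, had its highest median levels in macrophage-like and monocyte-like cells, which held 18.02% and 66.0% of its UMIs. Macrophage-like cells held 85.4, 45.3, 22.2 and 34.6 CPM in the TO libraries and 44.2, 35.2, 22.4 and 0 CPM in the TOE libraries, in the order above. Monocyte-like cells held 33.5, 38.9, 22.2 and 19.0 CPM in TO and 50.3, 18.1, 38.5 and 1.64 CPM in TOE. Levels in these classes overlapped, and macrophage-like cells had the higher level in 4 of 8 libraries (exact p = 0.703 with 1 CPM added). Adding 1 UMI, which turns TOE 4d 24h and the near tie in TO 4d 4h, gave 6 of 8 (exact p = 0.148). Neutrophil-like cells, which were rich in Il1b, had at most 7.58 CPM of Il1a, and monocyte-like cells exceeded them by 3.05 on the log2 scale (SD 1.06, higher in 8 of 8 libraries, exact p = 0.0078). Within that class Il1a was uneven, and cluster 6 held up to 40.6 CPM (TOE 2d 4h), within the range of monocyte-like cells, while clusters 11, 16 and 17 held 0.423, 0.672 and 0.384 CPM over all libraries.

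Among the classes, Tnf had its highest median in macrophage-like cells, which held 121, 61.2, 54.0 and 44.8 CPM in the TO libraries and 53.3, 133, 49.2 and 27.3 CPM in the TOE libraries. A monocyte-like cluster described below (cluster 26) held more over all libraries. Monocyte-like cells held 56.0, 40.3, 19.9 and 60.8 CPM in TO and 23.8, 37.7, 21.0 and 11.8 CPM in TOE. The macrophage-like level was higher in 7 of 8 libraries, by a mean of 1.04 on the log2 scale (SD 0.68, exact p = 0.0156), the exception being TO 4d 24h. Neutrophil-like cells held 5.89 to 12.1 CPM of Tnf. The ligand of the TNF receptors was thus low in the class that shared the high Il1b levels.

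The sequences just upstream of the start sites of the agonist ligand genes and of the antagonist are shown because the ligands carried a motif that the other members with a listed promoter lacked. They are the last 100 bases before the start site in RefSeq (build GRCr8), 5′ to 3′ on the strand of the gene, with any TATAAA in capitals. Il1a lies at chr3:136990018-136990117 (minus strand), Il1b at chr3:137036582-137036681 (minus), Il1rn at chr3:27520222-27520321 (plus) and Tnf at chr20:3626585-3626684 (plus).
Il1a: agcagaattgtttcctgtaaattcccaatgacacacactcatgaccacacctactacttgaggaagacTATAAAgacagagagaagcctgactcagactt
Il1b: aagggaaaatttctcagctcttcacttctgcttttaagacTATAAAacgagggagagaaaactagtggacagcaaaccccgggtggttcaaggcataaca
Tnf: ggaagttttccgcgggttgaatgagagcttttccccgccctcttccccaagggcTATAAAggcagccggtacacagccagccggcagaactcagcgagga
Il1rn: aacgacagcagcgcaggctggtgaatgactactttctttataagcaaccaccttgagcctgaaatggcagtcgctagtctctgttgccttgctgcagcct

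TATAAA, searched on the strand of the gene, was found in Il1a, Il1b and Tnf, and not in Il1rn or in the 4 receptor genes with a listed promoter (Il1r1, Il1rap, Tnfrsf1a and Tnfrsf1b). Over all promoters listed for the rat, 1135 of 27457 (4.13%) held it in the same 100 bases. The κB consensus, searched by name on both strands over 250 upstream bases, was found in the Il1r1 and Il1rap promoters and in 3.52% of all promoters. A match describes the letters in this window and is no evidence of a bound factor, and Il1r2 had no listed promoter.

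Il1rn, which encodes the antagonist, was highest in neutrophil-like, macrophage-like and monocyte-like cells. Neutrophil-like cells held 122, 184, 160 and 238 CPM in the TO libraries and 86.9, 155, 109 and 101 CPM in the TOE libraries. Macrophage-like cells held 128, 143, 142 and 28.8 CPM in TO and 135, 118, 134 and 188 CPM in TOE. Monocyte-like cells held 88.9, 116, 92.9 and 53.1 CPM in TO and 83.8, 69.1, 100 and 43.8 CPM in TOE. Neutrophil-like cells were above monocyte-like cells in 8 of 8 libraries and above macrophage-like cells in 4 of 8 (exact p = 0.758 for the latter, a neighbouring pair). Within each library, monocyte-like cells exceeded the next class by median level, mast-cell/basophil-like cells. The mean difference was 2.83 on the log2 scale (SD 0.73, higher in 8 of 8 libraries, exact p = 0.0078). Over the libraries, the levels ranged from 43.8 to 116 CPM in monocyte-like and from 2.76 to 34.3 CPM in mast-cell/basophil-like cells.

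Il1r2, the decoy receptor, was the member with the narrowest distribution. Neutrophil-like cells held 168, 321, 325 and 424 CPM in the TO libraries and 274, 192, 266 and 260 CPM in the TOE libraries. Monocyte-like cells held between 4.62 CPM (TOE 4d 24h) and 17.4 CPM (TOE 2d 4h), and B-cell-like cells, the background, between 3.26 and 7.05 CPM. Neutrophil-like cells exceeded macrophage-like cells, the next class, by 5.00 on the log2 scale (SD 0.98, 8 of 8 libraries, exact p = 0.0078). Among the other classes from macrophage-like to mesenchymal-like cells, no neighbouring pair had an exact p under 0.05 with 1 UMI added, while with 1 CPM added the pair of dendritic-cell-like and endothelial-like cells had an exact p of 0.0469. After thinning to 2000 UMIs per cell, 42.96% of neutrophil-like cells (6043 of 14066) had an Il1r2 UMI, against 1.33% of monocyte-like and 0.94% of B-cell-like cells, whose median depths before thinning were 5853, 13686 and 3905 UMIs.

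Il1r1, the signalling receptor, was highest outside the neutrophil-like class. Endothelial-like cells held 90.8, 163, 165 and 91.3 CPM in the TO libraries and 126, 59.3 and 111 CPM in the TOE libraries at 2d 4h, 2d 24h and 4d 4h, and the 17 such cells of TOE 4d 24h were too few to be used. Monocyte-like cells held 68.9, 79.7, 45.8 and 58.4 CPM in TO and 127, 116, 92.0 and 37.3 CPM in TOE. Mesenchymal-like cells, the stromal class of the callus, ranged from 11.9 to 115 CPM. Monocyte-like cells could not be told apart from either of the other classes (exact p = 0.203 and 0.164), and at Leiden resolution 2, where the 90 cells called mesenchymal leave the endothelial-like class, its mean log2 difference from monocyte-like cells was 0.40 in place of 0.47. Their part in the low level of TOE 2d 24h was not tested. Neutrophil-like cells held 3.71 to 39.0 CPM with the highest value in TOE 2d 4h. B-cell-like cells, the background, held 2.64 to 9.77 CPM and lay above neutrophil-like cells in TO 2d 0h and TO 4d 24h. Il1rap, the shared accessory chain, was spread more evenly than its partner. It ranged from 37.8 to 141 CPM in neutrophil-like, from 25.9 to 79.4 CPM in monocyte-like and from 22.9 to 47.9 CPM in B-cell-like cells.

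The TNF receptors also differed in their cells. Tnfrsf1a was highest in endothelial-like cells, at 74.1 to 102 CPM over 7 libraries, and exceeded neutrophil-like cells in all 7 by 0.72 on the log2 scale (SD 0.28, exact p = 0.0156, the smallest that 7 libraries allow). The difference was 0.79 at Leiden resolution 2, without the 90 cells called mesenchymal. Tnfrsf1b was highest in monocyte-like cells, at 244, 457, 370 and 279 CPM in the TO libraries and 273, 175, 278 and 174 CPM in the TOE libraries. T/NK-cell-like cells followed at 157 to 424 CPM, and the difference from monocyte-like cells was 0.21 on the log2 scale (SD 0.22, 6 of 8 libraries, exact p = 0.0391). Macrophage-like cells held 70.3 to 184 CPM and neutrophil-like cells 34.8 to 101 CPM. T/NK-cell-like cells lay above macrophage-like cells, and these above neutrophil-like cells, in 8 of 8 libraries (exact p = 0.0078 each).

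The shares of cells with a UMI, thinned to 2000 UMIs per cell, gave the same tops for the ligands and for Tnfrsf1b as the summed levels. An Il1b UMI was found in 38.2% of monocyte-like, 26.3% of neutrophil-like and 25.5% of macrophage-like cells, against 2.30% of B-cell-like cells. A Tnf UMI was found in 12.9% of macrophage-like, 6.61% of monocyte-like and 1.49% of neutrophil-like cells, against 0.249% of B-cell-like cells. For Tnfrsf1b the shares were 43.4% of monocyte-like and 2.47% of B-cell-like cells. Without thinning, the shares with an Il1b UMI were 60.9%, 38.8%, 51.1% and 4.80% in monocyte-like, neutrophil-like, macrophage-like and B-cell-like cells, which differ in depth. For Il1rap, 5.94% of B-cell-like cells held a UMI after thinning, close to the 5.61% of macrophage-like cells.

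Neutrophil-like and monocyte-like cells of the same library were then compared with edgeR over 16127 genes, with the library as a block. Of the 9 members, 8 passed at an adjusted p under 0.05, where 74.8% of all genes did, so the count by itself says little and the directions carry the information. Il1r2 (log2 difference 5.83, SE 0.28, edgeR adjusted p = 8.1e-10), Il1rn (1.34, SE 0.22), Il1rap (0.94, SE 0.12) and Tnfrsf1a (0.81, SE 0.07) were higher in neutrophil-like cells. Il1r1 (-2.26, SE 0.24), Il1a (-2.25, SE 0.21), Tnfrsf1b (-1.59, SE 0.09) and Tnf (-1.35, SE 0.20) were lower. Il1b did not pass (0.12, SE 0.24). The scaling matters for small differences here, since a plain CPM scale moved the median of all genes to -0.48 on the log2 scale, against -0.02 in the fit. On that scale Il1b was at -0.41, Il1rap at 0.42 and Tnfrsf1a at 0.28, so the sign of Il1b depends on the scaling and those of the 8 members that passed do not.

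Ratios between members within a cell class need no scaling between classes, and they differed in the same direction in every library. The ratio of Il1rn to Il1b UMIs was 0.786, 0.223, 0.238 and 0.851 in neutrophil-like cells of the TO libraries and 0.248, 0.470, 0.236 and 2.71 in those of the TOE libraries. In monocyte-like cells it was 0.182, 0.131, 0.195 and 0.219 in TO and 0.0982, 0.127, 0.148 and 1.49 in TOE. Neutrophil-like cells thus had more antagonist per agonist transcript than the monocyte-like class in 8 of 8 libraries, by a mean of 1.23 on the log2 scale (SD 0.69, exact sign-flip p = 0.0078). In macrophage-like cells the ratio was 0.213, 0.373, 0.826 and 0.168 in TO and 0.281, 0.374, 0.673 and 8.63 in TOE. It lay above that of neutrophil-like cells in the 4 h libraries and TOE 4d 24h, and below it elsewhere. The monocyte-like cluster 12 also lay above the neutrophil-like class in the 4 h libraries, but below it in the 4d 24h pair. The ratio of decoy to signalling receptor (Il1r2 to Il1r1) was higher in neutrophil-like cells in 8 of 8 libraries by 8.17 on the log2 scale (SD 1.31, exact p = 0.0078). Its size rests in part on levels near the background. Neutrophil-like cells held 3.71 to 39.0 CPM of Il1r1, against 2.64 to 9.77 CPM in B-cell-like cells. Monocyte-like cells held 4.62 to 17.4 CPM of Il1r2, against 3.26 to 7.05 CPM in B-cell-like cells. The ratio of Tnfrsf1b to Tnfrsf1a was lower in neutrophil-like cells in 8 of 8 libraries, by a mean difference of -2.40 on the log2 scale (SD 0.22, exact p = 0.0078). Adjusted over these 3 ratios, the exact p stayed at 0.0078. The ratios compare UMIs of different transcripts and are read only between cells, not as amounts of protein.

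Macrophage-like cells were set against monocyte-like cells in the same way, and 6 of 9 members passed, where 55.6% of 15565 genes did. Tnf was higher in macrophage-like cells (log2 difference 0.86, SE 0.20, edgeR adjusted p = 0.0020). Il1r1 (-2.68, SE 0.12), Tnfrsf1b (-1.34, SE 0.13), Il1b (-1.05, SE 0.19), Il1rap (-1.05, SE 0.18) and Tnfrsf1a (-0.69, SE 0.10) were lower. Il1a (0.18, SE 0.22), Il1rn (0.39, SE 0.20) and Il1r2 (-0.04, SE 0.25) did not pass. On the plain CPM scale, whose median over all genes was 0.29, the 6 members that passed kept their signs.

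Other genes of the pathway were read from a list of 104 genes, 103 of which are in the files. Between neutrophil-like and monocyte-like cells, 34 of 93 tested were higher and 36 lower in neutrophil-like cells, where 5917 of all 16127 genes were higher and 6146 lower. The groups below are given as counts and values, and their shares were not tested against those of all genes. Of the IL-1 family relatives, 9 of 12 were higher, led by the IL-18 receptor chains Il18r1 (log2 difference 5.91, SE 0.23) and Il18rap (3.64, SE 0.19), while the ligand Il18 was lower (-2.85, SE 0.17). Of the TNF relatives, Ltb (2.66, SE 0.09) and Tnfsf14 (2.31, SE 0.10), which encode lymphotoxin-β and LIGHT, were higher, and Tnfsf13b, the B-cell survival factor BAFF, was lower (-3.55, SE 0.37). Of 19 NF-κB and MAPK genes, 4 were higher and 10 lower. Among 15 target genes, 5 were higher and 7 lower, with Nos2 (2.77, SE 0.44), inducible nitric oxide synthase, at the top and the chemokines Ccl2 (-3.43, SE 0.34) and Cxcl1 (-3.08, SE 0.18) and the adhesion molecule Icam1 (-3.09, SE 0.14) at the bottom.

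Within the neutrophil-like class the members differed along the granule and maturation genes. Of its 4 clusters, cluster 16 had the most primary granule transcripts (579 CPM summed over 4 genes), cluster 11 the most secondary granule transcripts (58607 CPM), and clusters 6 and 17 the most transcripts of the mature genes (5451 and 7988 CPM). In the order 16, 11, 6 and 17, pooled Il1r2 stood at 8.53, 109, 672 and 637 CPM and pooled Il1rn at 6.995, 45.0, 382 and 211 CPM. In every library both genes were lowest in cluster 16, next in cluster 11 and higher in clusters 6 and 17. Il1b, at 48.0, 84.0, 1236 and 116 CPM, was highest in cluster 6 in every library. Cluster 17 took 1416 of its 2271 cells from TOE 4d 24h, which lowers its pooled Il1b, and its level by library ranged from 61.8 to 399.7 CPM. Il1a was found mainly in cluster 6 as well, at 14.3 CPM against at most 0.672 CPM in the others. Tnfrsf1b stood at 10.9, 26.9, 166 and 82.3 CPM and Tnfrsf1a at 27.1, 46.4, 92.3 and 91.7 CPM. Pooled Il1rap changed least, from 61.1 CPM in cluster 16 to 96.3 CPM in cluster 17. By library its level in cluster 17 differed more, with 47.5 CPM in TO 2d 4h and 289 CPM in TOE 2d 4h. These levels are a description, since the clusters were built from other genes of the same cells.

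**Figure D2:**
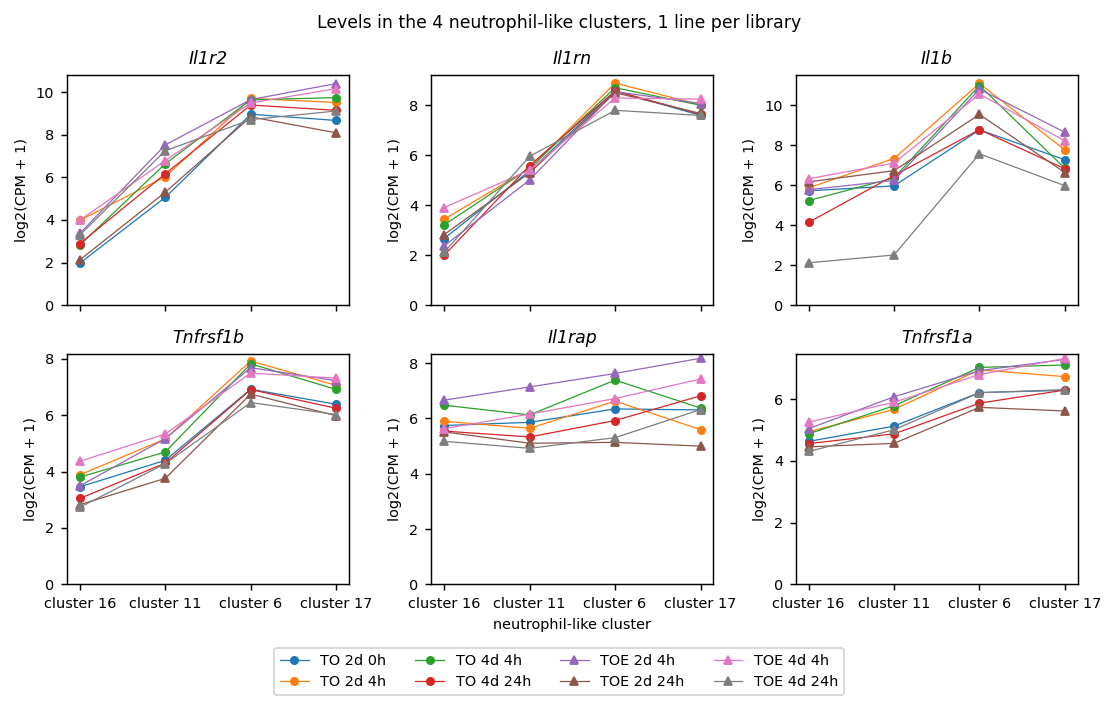
Levels, as log2(CPM + 1), of 6 members in the 4 neutrophil-like clusters, ordered from primary granule genes (cluster 16) through secondary granule genes (cluster 11) to mature genes (clusters 6 and 17), with 1 line per library (circles TO, triangles TOE). Il1r2 and Il1rn are lowest in cluster 16 and high in clusters 6 and 17 in all 8 libraries, whereas Il1b peaks in cluster 6.

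The monocyte-like class held 3 clusters with different member profiles. Cluster 5 (6982 cells), with the highest Cd14, held 789 CPM of Il1b, 40.7 CPM of Il1a and 96.9 CPM of Il1r1 over all libraries. Cluster 12 (3411 cells), whose leading genes include the heat shock gene Hspa1b and its cofactor Bag3, held 80.8 CPM of Il1b, 8.86 CPM of Il1a and 63.6 CPM of Il1r1. Cluster 26 (952 cells), led by Adgre4 and Treml4, held 720 CPM of Il1b but 5.13 CPM of Il1a and 8.70 CPM of Il1r1. Its pooled Tnf and Tnfrsf1b were 174 and 737 CPM, against 36.6 and 302 CPM in cluster 5 and 13.3 and 204 CPM in cluster 12. Leaving aside TOE 4d 24h, which held 5 cells of cluster 26, its Tnf ranged from 83.7 to 594 CPM over 7 libraries and its Tnfrsf1b from 422 to 977 CPM, above both other clusters in each of them. The macrophage-like class held 27.3 to 133 CPM of Tnf. The pooled values weigh the libraries unequally, since TOE 4d 24h gave 592 cells to cluster 12 and 26 to cluster 5.

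The effects of arm, day and hour of collection were fitted together within a class with edgeR, so that libraries which differ in the other factors stand in as replicates. The day 2 library not collected at 4 h was TO 2d 0h in TO and TOE 2d 24h in TOE. The hour term codes these alike, so the arm term also holds their difference in time after the injury. For the arm (TOE minus TO), 0 of 9 members passed in neutrophil-like, monocyte-like or macrophage-like cells and 0 of 8 in mesenchymal-like cells, where Tnf was too low to be tested. Over all genes 0% passed in each of the 4 classes. At an unadjusted p under 0.05 there were 3, 2, 1 and 0 members in the same order, beside 480 of 14273, 1447 of 15474, 335 of 12772 and 293 of 13254 genes. DESeq2 called 1 of these members, Tnfrsf1b, lower in TOE in monocyte-like cells, where it called 67 genes. In that class Tnfrsf1b stood at 457 CPM in TO and 273 CPM in TOE at 2d 4h, at 370 and 278 CPM at 4d 4h, and at 279 and 174 CPM at 4d 24h. The level was lower in TOE in 3 of 3 pairs, and the fitted term was -0.65 (SE 0.13, edgeR adjusted p = 0.508). At 4d 24h the direction depended on the cluster, with 171 CPM in TOE and 145 CPM in TO in cluster 12 (ratio 1.18, 95% interval 1.03 to 1.36), which held most of the TOE cells, and a ratio of 0.799 (0.632 to 0.997) in cluster 5. A sign-flip test over 3 pairs cannot go below 0.25.

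For the day (day 4 minus day 2), 0 of 9 members passed with edgeR in the neutrophil-like, monocyte-like and macrophage-like classes and 0 of 8 in mesenchymal-like cells. In TOE this term also holds the further shock wave session of day 4. Over all genes 0% passed in neutrophil-like, macrophage-like and mesenchymal-like cells and 0.00646% in monocyte-like cells. The members with an unadjusted p under 0.05 numbered 0 in neutrophil-like, 1 in monocyte-like, 4 in macrophage-like and 1 in mesenchymal-like cells, beside 754, 486, 329 and 278 genes of the same totals. DESeq2 called 0 members for the day. The 4 in macrophage-like cells were Il1b (-1.68, SE 0.44), Il1a (-1.16, SE 0.39), Tnf (-0.87, SE 0.34) and Il1r1 (-0.65, SE 0.24).

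For the hour (4 h minus 0 or 24 h), Tnfrsf1a, Tnfrsf1b and Il1r1 passed in 1 or 2 classes each, and Il1a, Il1b, Tnf, Il1rn, Il1r2 and Il1rap passed in none of the 4 classes as a whole with all 8 libraries. In neutrophil-like cells 2 of 9 members passed, where 7.85% of 14273 genes did, and both were higher at 4 h. They were Tnfrsf1a (0.53, SE 0.13, edgeR adjusted p = 0.0491) and Il1r1 (1.35, SE 0.33, edgeR adjusted p = 0.0437). In monocyte-like cells 2 of 9 passed, where 9.8% of 15474 genes did, namely Tnfrsf1a (0.61, SE 0.10, edgeR adjusted p = 0.0168) and Tnfrsf1b (0.66, SE 0.13, edgeR adjusted p = 0.0241), both higher at 4 h. In macrophage-like cells 1 of 9 passed, where 6.08% of 12772 genes did, and this was Tnfrsf1b, higher at 4 h (0.83, SE 0.17, edgeR adjusted p = 0.0312). In mesenchymal-like cells 0 of 8 passed, where 0.0302% of 13254 genes did, while 3 had an unadjusted p under 0.05, beside 2460 genes. DESeq2 called 2 of them there, Il1r1 and Tnfrsf1b, as higher, among 694 genes.

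The median fitted hour term over the members was 0.53 in neutrophil-like, 0.66 in monocyte-like, 0.32 in macrophage-like and 0.94 in mesenchymal-like cells, against -0.01, -0.02, 0.01 and -0.01 over all genes tested. The levels of Tnfrsf1a show how the hours separated. Neutrophil-like cells held 69.6, 74.8, 66.3 and 68.4 CPM in the libraries collected at 4 h (TO 2d, TO 4d, TOE 2d and TOE 4d) and 43.5, 45.9, 34.4 and 46.1 CPM in the libraries collected at 0 or 24 h (TO 2d 0h, TO 4d 24h, TOE 2d 24h and TOE 4d 24h). Monocyte-like cells held 50.8, 59.6, 53.8 and 56.2 CPM at 4 h and 36.7, 35.7, 31.0 and 41.5 CPM at 0 or 24 h. The groups did not overlap in either class. TO had no session and was split in the same way, with neutrophil-like levels of 69.6 and 74.8 CPM against 43.5 and 45.9 CPM. TO 2d 0h (43.5 CPM) and TO 2d 4h (69.6 CPM) were collected on the same day after the injury, with 1 library each. The hour of collection and the time of day cannot be told apart in this design. The part of the later day of the 24 h libraries was not tested. The libraries also split by hour in other cells, since the B-cell-like cluster 1 held 3635, 3406 and 4113 cells in TO 2d 0h, TO 4d 24h and TOE 2d 24h and 33 to 61 in the 4 h libraries. TOE 4d 24h, with 61 such cells, was low there as well, but it did not resemble the 4 h libraries in other B-cell-like clusters. It held 36 cells of cluster 2, where the 4 h libraries held 2194 to 3143. It held 3732 cells of cluster 3, where the 4 h libraries held 362 to 2711. The part of this split in the hour terms was not tested.

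The fitted hour terms of Il1b and Il1a had wide errors and did not pass. Il1b was at 1.33 (SE 0.56, edgeR adjusted p = 0.172) in neutrophil-like and 1.44 (SE 0.63, edgeR adjusted p = 0.172) in monocyte-like cells, and Il1a at 2.02 (SE 0.72) and 1.28 (SE 0.62). Tnf was at -0.11 (SE 0.26) and -0.56 (SE 0.36), and the first of these turned to 0.76 in the largest neutrophil-like cluster alone. In the largest cluster of each class alone, which was tried once the class values were known, Il1b passed in cluster 6 (2.00, edgeR adjusted p = 0.0113) and in cluster 5 (1.58, edgeR adjusted p = 0.00785). Il1a passed in the same clusters (2.62, edgeR adjusted p = 0.00947, and 1.01, edgeR adjusted p = 0.0296), and Tnf passed as lower at 4 h in cluster 5 (-0.73, edgeR adjusted p = 0.0219). In cluster 6 Il1rap (1.36, edgeR adjusted p = 0.0203) and Tnfrsf1b (0.87, edgeR adjusted p = 0.0112) also passed as higher, which they did not in the class. Without TOE 4d 24h, Il1b in monocyte-like cells passed at 0.88 (edgeR adjusted p = 0.00717) and Tnf at -0.86 (edgeR adjusted p = 0.0224), Il1a in neutrophil-like cells passed at 1.40 (edgeR adjusted p = 0.00646), and Il1rap in macrophage-like cells at 1.19 (edgeR adjusted p = 0.0211). The 5 receptor calls kept their direction when any 1 library was left out, but each of them lost its adjusted p under 0.05 in 6 or 7 of the 8 cases.

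**Figure D3:**
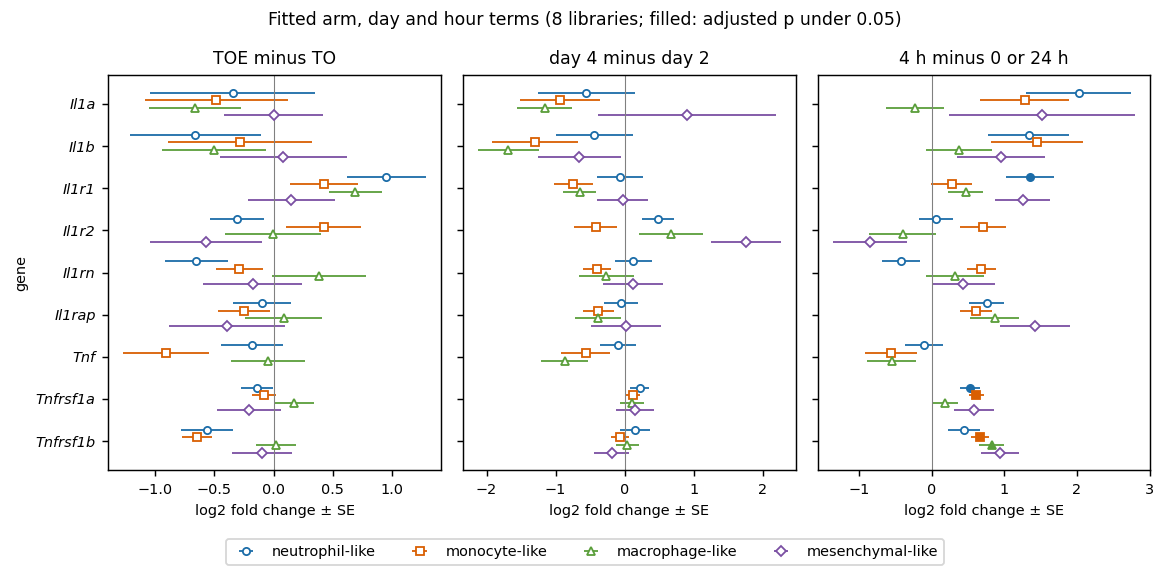
Fitted log2 fold changes (x axis, bars are 1 SE) of the 9 genes for the arm, the day and the hour of collection in 4 cell classes, over 8 libraries. Filled symbols, those with an edgeR adjusted p under 0.05, occur only in the panel for the hour, for Tnfrsf1a, Tnfrsf1b and Il1r1.

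Of the pathway genes in the list, 5 were higher and 1 lower at 4 h among 88 tested in neutrophil-like cells, and 5 were higher and 3 lower among 90 in monocyte-like cells, where 7.85% and 9.8% of all genes passed. Il6, a cytokine target of IL-1 and TNF, was higher in both (2.84, SE 0.18 and 2.15, SE 0.42), as was Irak1, the kinase recruited through MyD88 (0.80, SE 0.17 and 0.60, SE 0.10). The granulocyte growth factor Csf3 (2.97, SE 0.72), the TNF receptor kinase Ripk1 (0.76, SE 0.18) and the ubiquitin ligase Peli1 (0.64, SE 0.16) were higher, and the inflammasome sensor Nlrp1a (-1.08, SE 0.25) was lower, in neutrophil-like cells. In monocyte-like cells Rhbdf2 (1.14, SE 0.13), which carries the TNF-shedding protease ADAM17 to the surface, the DNA sensor Aim2 (0.73, SE 0.18) and Traf3 (0.64, SE 0.15) were higher, while Otulin (-0.64, SE 0.16), Tab3 (-0.55, SE 0.13) and Ikbkg (-0.54, SE 0.13) were lower. None of the 88 to 90 pathway genes passed for the arm or the day with edgeR in these classes.

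TOE was set against TO at matched times, with 1 library each, so the intervals cover counting error only and no test was possible. A member was counted as different at 2-fold if its pair held 20 UMIs or more. In neutrophil-like cells at 2d 4h, 2 of 9 were higher and 2 lower in TOE, where 7.41% and 3.34% of all genes were. Il1r1 stood at 39.0 CPM in TOE and 8.56 CPM in TO (ratio 4.56, 95% interval 3.75 to 5.56) and Il1rap at 141 and 69.0 CPM (ratio 2.05, 1.90 to 2.21). B-cell-like cells of these libraries held 9.77 CPM of Il1r1 in TOE and 6.43 CPM in TO. Il1b stood at 350 and 825 CPM (ratio 0.424, 0.410 to 0.439) and Il1rn at 86.9 and 184 CPM (ratio 0.472, 0.440 to 0.505). Cluster 6, high in Il1b and Il1rn, made up 27.6% of these cells in TOE and 57.6% in TO. Within clusters the ratio of Il1b was 0.821 (0.791 to 0.852) in cluster 6, 0.464 (0.410 to 0.524) in cluster 11 and 1.85 (1.33 to 2.63) in cluster 17, and that of Il1rn was 0.790, 0.718 and 1.04. Il1r1 and Il1rap had ratios above 2 in each of these clusters, at 3.61 (2.55 to 5.12) and 2.01 (1.76 to 2.29) in cluster 6. At 4d 4h, 0 of 9 were 2-fold higher or lower, where 1.81% and 2.89% of all genes were. The ratio of Il1r1 there was 1.39 (1.17 to 1.66), and that of Il1rap was 0.718 (0.667 to 0.774). Within clusters 6, 11 and 17 the ratio of Il1r1 was 1.37 (1.03 to 1.80), 2.42 (1.63 to 3.68) and 4.04 (2.38 to 7.08), and that of Il1rap was 0.627 (0.556 to 0.707), 1.02 (0.893 to 1.17) and 2.08 (1.51 to 2.88). The count of 0 therefore holds for the class and not for each of its clusters.

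In monocyte-like cells at 2d 4h, 1 of 9 was higher and 0 lower, where 5.5% and 3.08% of all genes were. This was Il1r2, at 17.4 CPM in TOE and 5.00 CPM in TO (ratio 3.48, 2.84 to 4.29), both far below its level in neutrophil-like cells. B-cell-like cells, the background, held 3.26 CPM in TOE and 3.85 CPM in TO. Per 1000 S100a8 UMIs, Il1r2 stood at 6.44 in monocyte-like and 6.04 in neutrophil-like cells in TOE, and at 2.56 and 6.69 in TO. The part of free RNA in this ratio was not tested. Cluster 12 made up 41.2% of these cells in TOE and 13.8% in TO, and cluster 5 made up 52.2% and 77.1%. Within clusters the ratio of Il1r2 was 3.33 (2.61 to 4.27) in cluster 5 and 2.85 (1.91 to 4.405) in cluster 12. At 4d 4h, 1 of 9 was higher and 0 lower, where 3.52% and 2.79% of all genes were. This was Il1r1, at 92.0 CPM in TOE and 45.8 CPM in TO (ratio 2.01, 1.86 to 2.17), and its ratio at 2d 4h was 1.59 (1.51 to 1.69). Within clusters its ratio at 4d 4h was 1.69 (1.55 to 1.85) in cluster 5 and 3.31 (2.79 to 3.95) in cluster 12, and at 2d 4h it was 1.61 (1.51 to 1.71) and 2.17 (1.85 to 2.56). At 4d 24h it lay below 1, with 37.3 CPM in TOE and 58.4 CPM in TO (ratio 0.639, 0.565 to 0.721), and was 0.736 (0.575 to 0.952) in cluster 12 and 1.33 (0.886 to 1.92) in cluster 5.

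In neutrophil-like, monocyte-like and macrophage-like cells, the pair at 4d 24h held the lowest ratios of the agonists. In neutrophil-like cells 0 of 9 were higher and 4 lower in TOE, where 12.2% and 9.5% of all genes were, and in monocyte-like cells 0 were higher and 3 lower, where 14.7% and 7.15% were. Il1b stood at 37.2 CPM in TOE and 280 CPM in TO in neutrophil-like cells (ratio 0.133, 0.123 to 0.144) and at 29.3 and 243 CPM in monocyte-like cells (ratio 0.121, 0.107 to 0.136). Il1a had 0 UMIs in TOE and 25 in TO in neutrophil-like cells, and 16 and 326 UMIs in monocyte-like cells (ratio 0.0866, 0.0489 to 0.143). Tnf in monocyte-like cells was at 11.8 and 60.8 CPM (ratio 0.194, 0.159 to 0.236), and Il1rn and Tnfrsf1b in neutrophil-like cells had ratios of 0.422 and 0.453. In macrophage-like cells, 27 in TOE and 122 in TO, Il1rn was at 188 and 28.8 CPM (ratio 6.54, 4.52 to 9.52) and Il1b at 21.8 and 172 CPM (ratio 0.127, 0.0544 to 0.254). Of 8 members with 20 UMIs or more in that pair, 3 were 2-fold higher (Il1r2, Il1rn and Il1rap) and 2 lower (Il1a and Il1b), where 966 and 863 of 8904 genes were. The median log2 ratio over the members at 4d 24h was -0.71 in neutrophil-like, -0.68 in monocyte-like and 0.61 in macrophage-like cells, against 0.09, 0.17 and 0.03 over all genes.

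The mix of clusters differed between these libraries. Cluster 12, the monocyte-like cluster low in Il1b, made up 95.02% of the monocyte-like cells of TOE 4d 24h against 9.0% of those of TO 4d 24h, while cluster 5 made up 4.17% and 80.2%. Among neutrophil-like cells, cluster 6, the cluster high in Il1b, made up 11.5% and 74.9%, and cluster 17 made up 44.4% and 4.19%. Within clusters the ratio of Il1b remained below 1 but was nearer to it, at 0.447 (0.350 to 0.573) in cluster 12, 0.467 (0.334 to 0.634) in cluster 5, 0.432 (0.385 to 0.483) in cluster 6 and 0.552 (0.392 to 0.800) in cluster 17, and it was 0.0531 (0.0364 to 0.0757) in cluster 11. Il1rn had ratios on either side of 1, with 0.584 (0.524 to 0.649) in cluster 6, 0.966 (0.751 to 1.26) in cluster 17, 1.30 (1.04 to 1.63) in cluster 11, 1.16 (0.882 to 1.56) in cluster 12 and 1.96 (1.38 to 2.72) in cluster 5, which held 26 cells in TOE. Il1a in cluster 5 held 8 UMIs in TOE and 316 in TO, a ratio of 1.07 (0.457 to 2.13). Tnf in cluster 12 was at 11.01 CPM in TOE and 17.6 CPM in TO (ratio 0.626, 0.411 to 0.981). Tnfrsf1b had ratios of 0.724 (0.606 to 0.862) in cluster 6, 0.987 (0.687 to 1.45) in cluster 11 and 0.856 (0.567 to 1.35) in cluster 17.

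**Figure D4:**
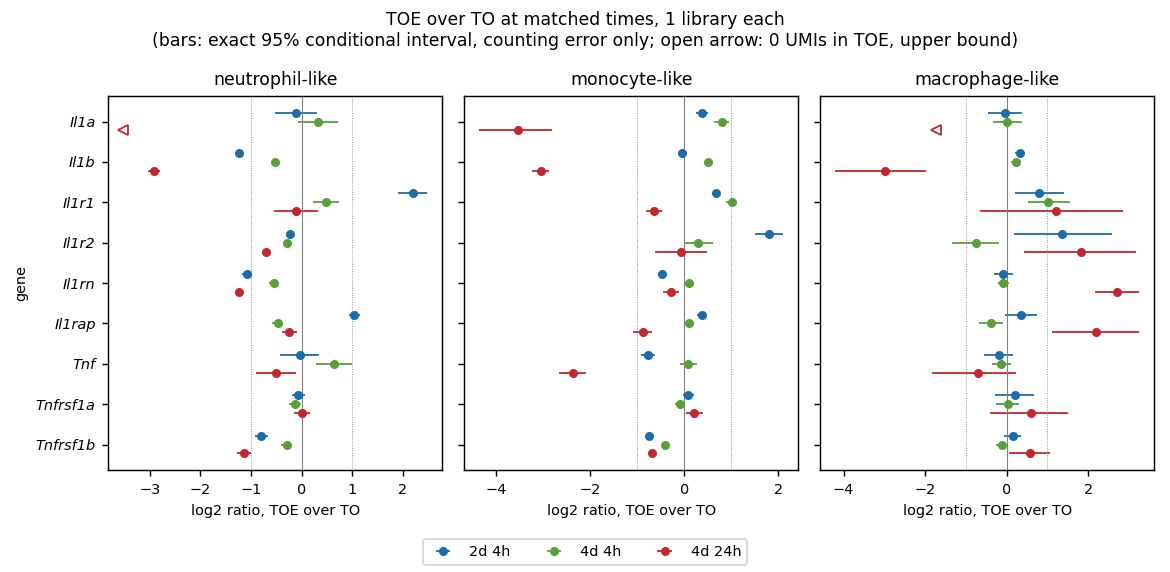
Log2 ratio of the level in TOE to that in TO (x axis, dotted lines at 2-fold) for the 9 genes in 3 cell classes at the 3 matched times, 1 library each, with exact 95% intervals for counting error. At 4d 24h Il1b lies near a ratio of 0.13 in all 3 classes, and open arrows mark the upper bounds where TOE held 0 UMIs of Il1a.

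**Figure D5:**
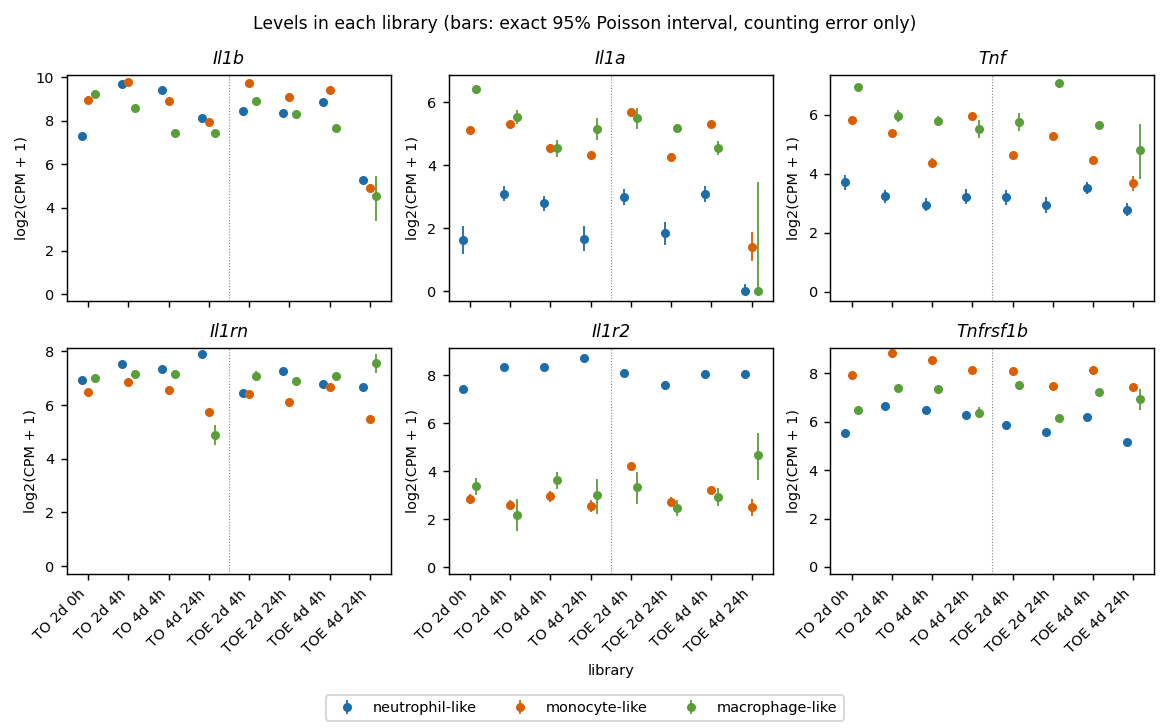
Levels, as log2(CPM + 1), of 6 members in neutrophil-like, monocyte-like and macrophage-like cells of each of the 8 libraries, with exact 95% Poisson intervals for counting error (the dotted line separates TO from TOE). Il1r2 is highest in neutrophil-like cells and Tnfrsf1b in monocyte-like cells in every library, and Il1b and Il1a drop to their lowest levels in TOE 4d 24h.

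The likeness between genes was described over 87 sums of a class within a library, which share libraries and classes, so no test is given. The members nearest to each other were Il1a and Il1b (Pearson r = 0.83 of log2(CPM + 1)), Il1b and Il1rn (0.80), and Il1rn and Tnf (0.76), while r for Il1r2 and Il1r1 was -0.07. Among 16373 genes, those most like Il1b were Cxcl2 (0.89), Themis2 (0.87) and Rab20 (0.86). Those most like Il1rn were Lilrb4 (0.95), Fcgr1a (0.93) and Slc11a1 (0.92), and those most like Tnf were Bcl2a1 (0.86), Aif1 (0.85) and Msr1 (0.83). Tnfrsf1b was nearest to Rap1b (0.83), Tnfrsf1a to Wdfy3 (0.87), Il1r1 to Plcb1 (0.83) and Il1rap to Rgs19 (0.79), and the 3 genes nearest to Il1r2 are listed only by locus identifiers.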

How the data were processed

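Tibial osteotomy tissue was profiled by droplet single-cell RNA sequencing (10x Genomics Chromium). The values the authors deposited are raw UMI counts of each gene in each barcode, without normalization, from Cell Ranger 9.0.0, and the submitters' processing notes also name the builds GRCh38 and mRatBN7.2, Seurat and R 4.0.3. Strand-aware counting and the annotation are not given in the sources used here.

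A barcode was kept if it held 200 genes or more and no more than 20% of its UMIs were mitochondrial, and cells with a Scrublet score over 0.25 (expected rate 8%) were removed as doublets, 2.42% to 4.24% per library. Counts were scaled and log transformed, and 2000 variable genes without the 9 members and the pathway list, 30 principal components, 15 neighbours and Leiden clustering at resolution 1 (scanpy 1.11.5, igraph 0.11.9, no integration) gave the clusters, which were named by at least 3 raised markers. Cells of clusters that raised fewer, or were shallow, stayed unnamed (19725 cells).

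UMIs were summed per library and class with at least 20 cells. Classes were compared by exact sign-flip tests with a prior of 1 UMI (alternatively 1 CPM), and by edgeR 4.0.16 quasi-likelihood fits (TMM, filterByExpr, R 4.3.3), over all genes with Benjamini-Hochberg adjustment at 0.05, with library as a block, or with arm, day and hour as additive terms (4 residual degrees of freedom). DESeq2 1.42.0 was an alternative. Pair ratios have exact conditional and levels exact Poisson intervals at 95%, and thinned shares were taken at 2000 UMIs per cell. On simulated data the fits recovered 39% and 83% of genes changed by 1 and 2 in log2 for the arm in neutrophil-like cells (14273 genes), 54% and 82% in monocyte-like cells (15474 genes), and 76% and 95% between the classes (16127 genes). Other tools were scipy 1.17.1 and numpy 2.4.6 under python 3.11.15, scikit-learn 1.9.0, pandas 2.3.3, umap-learn 0.5.12, matplotlib 3.10.9 and limma 3.58.1.

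The genes named were the 9 members, up to 5 pathway genes per direction with the largest fold among those past the threshold in fits of neutrophil-like or monocyte-like cells, and the 3 genes most correlated with each member among genes with at least 500 UMIs. The members and lists were chosen with earlier results of these data known. Alternatives changed the cell filter, doublet removal, clustering resolution and seed, genes used for clustering, scaling, low-count filter, tool, prior, thinning depth and block, and left out each library.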

Additional observations from a re-analysis of the deposited data

Results flagged for a closer look

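Of 36 groups of 4 libraries (9 genes, neutrophil-like and monocyte-like cells, each arm), 3 held a library whose gap to the nearest of the others, over the range on the log2 scale, exceeded Dixon's limit for 4 values, where chance gives about 1 in 20 groups. Il1b in neutrophil-like cells was 37.2 CPM in TOE 4d 24h, against 330 to 464 CPM in the other TOE libraries (gap over range 0.865). Il1b in monocyte-like cells was 29.3 CPM in the same library, against 543 to 854 CPM (0.866). In this library cluster 12, whose pooled Il1b was 80.8 CPM, made up 95.02% of monocyte-like cells, and cluster 6, high in Il1b, made up 11.5% of neutrophil-like cells. The part of this mix in the 2 values was not tested beyond the ratios within clusters. Il1r2 in neutrophil-like cells was 192 CPM in TOE 2d 24h, against 260 to 274 CPM in the other TOE libraries (0.857).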

How the results depend on the processing

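Over the alternatives, 623 of 671 values of counts and ratios were unchanged in their call or within the limits set for a change. So were 2734 of 2865 values of single members, among them 137 that were called in neither fit and changed sign. Of the other values of single members, 41 became weaker, 31 became stronger, 58 moved and 1 reversed. Over all 3782 values, of which these are parts, 3499 were unchanged and 210 moved. The 4 members higher and 4 lower in neutrophil-like than in monocyte-like cells, and the 3 ratios, kept their counts and directions under every alternative run, including the fit with no library block. The neighbouring classes with an adjusted p under 0.05 numbered 0, but 15 at Leiden resolution 2, 32 with doublets kept and 15 with cluster 30 counted as neutrophil-like. The smallest adjusted p of this permutation test was 0.0502 in the main setting, shared by the 14 pairs at the smallest exact p that 8 libraries allow. Pairs with the same exact p pass or fail together. The cause of the changes was not tested. The members called higher in macrophage-like than in monocyte-like cells numbered 1, and 1 to 2 when a library was left out (2 without TO 4d 24h). They numbered 3 at Leiden resolution 2, where 329 cells called osteoclast formed a cluster of their own, whose part was not tested.

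The counts for the hour depended most on the settings. For neutrophil-like cells the 2 higher members became 1 with members allowed in the clustering, with the stricter cell filter and with RLE size factors, 6 in the largest cluster alone, and 0 to 3 when a library was left out. For monocyte-like cells the 2 became 4 in the largest cluster alone and with DESeq2, and 0 to 3 without a library, and the 0 lower became 1 in the largest cluster alone and 0 to 1 without a library (1 without TOE 4d 24h). For macrophage-like cells the 1 became 0 at Leiden resolution 0.5, with another seed, with members allowed in the clustering, with the stricter filter and with doublets kept, 2 with no filter on low counts, and 0 to 2 without a library. For mesenchymal-like cells the 0 became 2 with DESeq2. Over all genes, the calls for the hour moved from 1120 to 154 without TO 4d 4h and to 2318 without TOE 4d 24h in neutrophil-like cells, from 1516 to 196 and 3489 without the same libraries in monocyte-like cells, and from 777 to 13 without TO 2d 4h and 2043 without TOE 4d 24h in macrophage-like cells. In monocyte-like cells the largest cluster alone gave 2671. For the arm in monocyte-like cells DESeq2 called 1 member lower, and for the day in macrophage-like cells 1 was lower with no filter. The causes were not tested.

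In the pairs, the largest cluster alone (cluster 6 or 5) gave 0 in place of 2 members lower in neutrophil-like cells at 2d 4h, 1 in place of 0 higher at 4d 24h, 0 in place of 1 higher in monocyte-like cells at 4d 4h and 1 in place of 3 lower at 4d 24h, where the log2 ratio of Il1a turned to 0.18 from 8 UMIs in 26 cells. With TMM-scaled sizes 1 in place of 2 members was higher in neutrophil-like cells at 2d 4h. No paired analysis was possible because every condition had 1 library, so a replicate number cannot serve as a block. This concerns replicate numbers only, and libraries matched by day and hour were compared as pairs above.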

Other observations

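Cluster 30, an unnamed cluster of 379 cells led by Cxcl3, Il23a and Cxcl2, stood outside the classes compared. It was singled out after its values were seen, and 304 of its cells came from TO 2d 0h. There it held 4029 CPM of Il1b, above any class of any library, together with 1018 CPM of Il1rn, 627 CPM of Il1r2 and 213 CPM of Il1a. Its cells were shallow, with a median of 2488 UMIs, and S100a8 stood at 1578 CPM over all libraries, against 59308 CPM in cluster 6. Other genes lay between cluster 6 and the monocyte-like clusters. The mature genes summed to 795.3 CPM, against 5451 CPM in cluster 6 and 77.68 to 109.4 CPM in the monocyte-like clusters. Cxcr2 stood at 52.40 CPM, against 126.1 CPM and 2.23 to 8.79 CPM. Cd14 stood at 26.72 CPM, against 8.39 CPM and 59.55 to 449.5 CPM. The class of these cells was not tested.

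Il1b and its decoy receptor were found in the same cells of cluster 6. After thinning to 2000 UMIs, 72.2% of 2932 cells with an Il1b UMI also held an Il1r2 UMI, against 60.4% of 3050 cells without. The exception among the libraries was TOE 4d 24h, with 50% against 55.8%. For Il1rn the shares were 53.6% and 36.5%, in the same direction in 8 of 8 libraries. The cells of a library are not replicates, so no test is given.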
